A study of Mus musculus with 10 samples.

Results

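Epithelial cells are held together by E-cadherin, claudins and gap junction channels, and a small set of transcription factors switches these genes on. The genes described here are 10 such regulators and junction genes, Trp63, Grhl1, Grhl2, Grhl3, Esrp1, Cdh1, Epcam, Cldn6, Cldn7 and Gjb2, out of 49662 genes measured in whole mouse embryonic hearts. They were named as a list and matched by symbol to the Ensembl gene identifiers. The list was chosen on earlier results from these same group counts, so the differences between groups are given as a description of the genes and carry no test.

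RNA-seq was carried out on E12.5 hearts of 3 groups, all on the 129/Sv background. The wild-normoxia group held 4 samples of wild-type hearts from mothers kept in room air. The wild-hypoxia group held 3 samples of wild-type hearts from mothers moved to a chamber at 14% oxygen on gestation day 10, 2 days before dissection. The mutant-normoxia group held 3 samples of hearts heterozygous for the Nkx2-5 R52G knock-in allele (+/R52G), which alters a cardiac homeobox transcription factor in every cell that expresses it, from mothers kept in room air. Each sample pooled 2 to 3 hearts. The table gives 1 estimated fragment count per gene and group, pooled over samples, with a variance from the authors' model. No value for a single sample was analysed, so the spread between samples is unknown. Each error below is a standard error derived here from that variance, divided by the number of samples. Both other groups are compared with the same wild-normoxia samples, so these comparisons are not independent of each other.

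The 3 grainyhead-like proteins (Grhl1, Grhl2 and Grhl3) are transcription factors that bind promoters and enhancers of junction genes in surface and lining epithelia. Trp63 encodes p63, the master regulator of the basal layer of stratified epithelia. The Zeb and Snai factors oppose this programme: they bind E-box sequences in the promoters of epithelial genes, E-cadherin being the best known, and keep them silent in mesenchymal cells. Working heart muscle uses N-cadherin (Cdh2) and connexin 43 (Gja1), and shares desmosomes with epithelia.

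Promoter sequence bears on this because the grainyhead and Zeb or Snai motifs can be read directly. RefSeq promoter windows of 300 bases, from 250 before to 50 after the annotated start, were matched for 6 of the 10 genes, with 8 windows in all on build GRCm38.p6. No window was available for Trp63, Grhl2, Cdh1 and Esrp1, so the E-cadherin promoter was not searched. The E-box searched was CACCTG, or CAGGTG on the other strand, and the grainyhead motif was AACCNGTT, or AACNGGTT on the other strand. The 5 windows below show a gap junction gene, an adhesion gene and a claudin that were higher in mutant-normoxia, and the grainyhead genes that lay above (Grhl3) and below (Grhl1) wild-normoxia, each 5′ to 3′ on the strand of its gene with E-boxes in capitals. Gjb2 lies at chr14:57104653-57104952 (minus strand), Epcam at chr17:87635729-87636028 (plus), Cldn6 at chr17:23679115-23679414 (plus), Grhl3 at chr4:135573583-135573882 (minus) and Grhl1, first annotated start, at chr12:24572037-24572336 (plus).
Gjb2: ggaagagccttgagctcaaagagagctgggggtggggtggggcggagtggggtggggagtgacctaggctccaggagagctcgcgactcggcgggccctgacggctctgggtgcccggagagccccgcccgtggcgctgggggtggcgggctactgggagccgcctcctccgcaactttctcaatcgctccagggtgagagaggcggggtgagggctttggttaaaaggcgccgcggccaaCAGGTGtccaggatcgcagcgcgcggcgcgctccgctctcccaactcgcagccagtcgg
Epcam: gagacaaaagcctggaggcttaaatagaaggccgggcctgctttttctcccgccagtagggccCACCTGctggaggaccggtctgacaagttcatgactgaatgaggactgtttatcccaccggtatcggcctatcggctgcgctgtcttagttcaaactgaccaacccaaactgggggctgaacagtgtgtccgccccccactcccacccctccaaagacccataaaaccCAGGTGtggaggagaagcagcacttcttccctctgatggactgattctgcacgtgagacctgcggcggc
Cldn6: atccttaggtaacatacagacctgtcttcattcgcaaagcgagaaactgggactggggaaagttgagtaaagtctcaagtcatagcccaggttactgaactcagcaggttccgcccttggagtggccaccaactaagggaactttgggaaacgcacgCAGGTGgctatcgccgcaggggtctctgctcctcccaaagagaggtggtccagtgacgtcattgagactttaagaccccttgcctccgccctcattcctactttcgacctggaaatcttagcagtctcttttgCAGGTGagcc
Grhl3: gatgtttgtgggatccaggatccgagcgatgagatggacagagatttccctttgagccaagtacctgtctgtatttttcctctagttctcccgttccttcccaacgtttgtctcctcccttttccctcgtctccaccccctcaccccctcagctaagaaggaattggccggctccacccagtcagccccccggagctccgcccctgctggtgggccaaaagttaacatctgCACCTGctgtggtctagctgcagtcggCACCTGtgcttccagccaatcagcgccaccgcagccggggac
Grhl1: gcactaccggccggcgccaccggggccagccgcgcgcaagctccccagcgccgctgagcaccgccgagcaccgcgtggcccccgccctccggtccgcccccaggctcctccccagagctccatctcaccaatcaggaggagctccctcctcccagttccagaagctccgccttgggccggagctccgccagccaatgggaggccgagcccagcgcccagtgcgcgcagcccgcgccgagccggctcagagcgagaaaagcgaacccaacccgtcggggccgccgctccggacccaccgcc

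The E-box was present in a window of 5 of the 6 genes, namely Gjb2, Epcam, Cldn6, Grhl3 and Cldn7, and in 5 of the 8 windows. It was absent from both windows of Grhl1 and from the window at the first annotated start of Cldn7. In Gjb2 a single match began 9 bases before the start. Epcam had matches at 187 and 19 bases before it, and Grhl3 had matches at 19 before and 8 after. Over all RefSeq promoter windows of the same length, 6640 of 32851 (20.2%) held the E-box. The grainyhead motif was found in none of the 8 windows, against 686 of 32851 (2.09%) of all windows. Such a match is a description of the letters in these windows, and binding was not measured. Whether the motif goes with the direction of change was not tested.

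**Figure D1:**
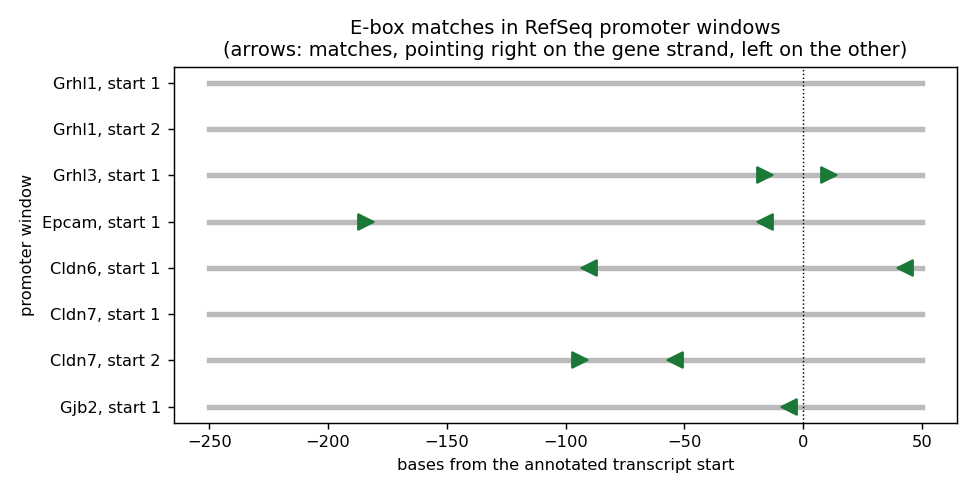
Positions of E-box matches in the 8 promoter windows of 6 genes, in bases from the annotated transcript start, with arrows pointing right for the gene strand and left for the other. Windows of Gjb2, Epcam, Cldn6, Grhl3 and the second start of Cldn7 held 1 or 2 matches each, and both Grhl1 windows held none.

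In wild-type hearts kept in normoxia the 10 genes were detected at low levels, from 26.0 fragments for Cldn7 to 309.4 for Grhl1. Group totals were close, at 18.5 M, 19.6 M and 18.7 M fragments for wild-normoxia, wild-hypoxia and mutant-normoxia. Divided by the length of annotated exons, Grhl1 was highest at 88.4 fragments per kb, followed by Grhl3 at 66.4 and Gjb2 at 46.9. Cldn6, Epcam and Cdh1 were lower at 31.2, 24.9 and 22.8 per kb. Cldn7, Trp63, Esrp1 and Grhl2 closed the order at 13.3, 6.85, 5.79 and 4.87 per kb. Neighbours in the order such as Epcam and Cdh1, or Trp63 and Esrp1, had levels within the model errors of each other.

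Several junction genes of working heart muscle and endocardium were far more abundant. N-cadherin (Cdh2) stood at 1168 fragments per kb in wild-normoxia and the endothelial cadherin Cdh5 at 1631, beside 22.8 for E-cadherin (Cdh1). P-cadherin (Cdh3), a classical cadherin also known from epithelia, was abundant too, at 625 per kb. Among connexins, Gja1 stood at 3029 per kb and Gja5, the atrial and conduction connexin, at 1148, beside 46.9 for Gjb2. Claudins were low throughout, with Cldn12 at 157 per kb and the endothelial claudin Cldn5 at 110. Cdh1 and Gjb2 were thus minor transcripts beside these cadherins and connexins, whereas the gap was smaller among claudins.

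**Figure D2:**
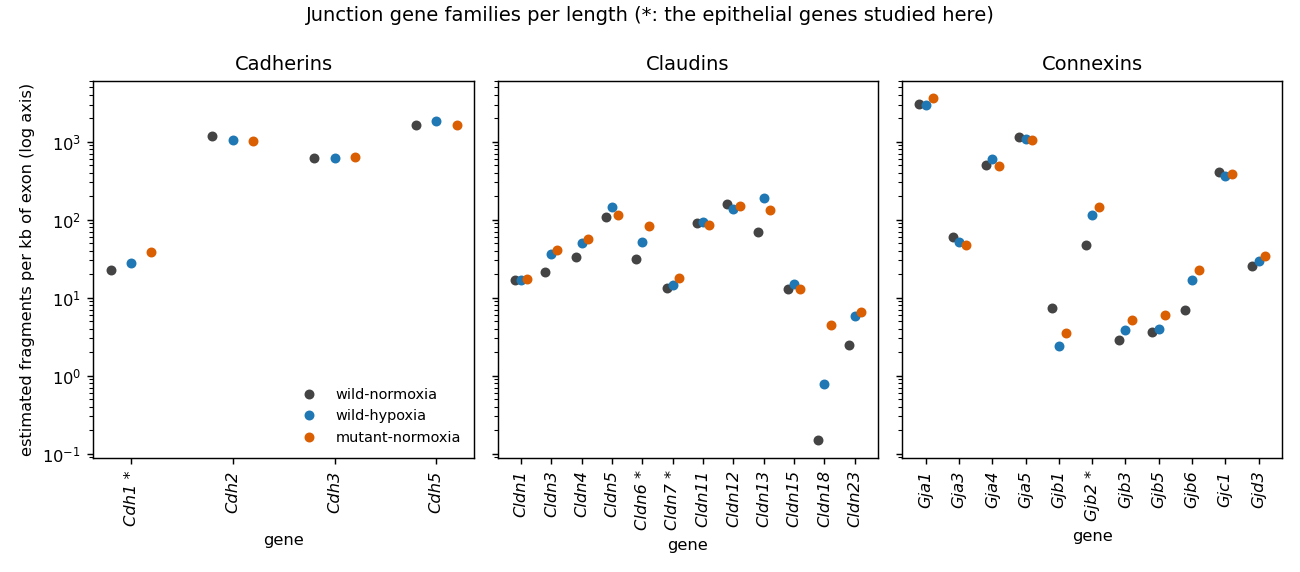
Levels of cadherins, connexins and claudins in the 3 groups as estimated fragments per kb of annotated exon, on a log axis, with asterisks on Cdh1, Gjb2, Cldn6 and Cldn7. In wild-normoxia Cdh1 at 22.8 per kb lies far below Cdh2 at 1168, and Gjb2 at 46.9 far below Gja1 at 3029.

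The comparison of wild-hypoxia with wild-normoxia asks what reduced maternal oxygen did to gene expression in wild-type hearts. Of the 10 genes, 3 were more than 2-fold higher in wild-hypoxia (Trp63, Esrp1 and Gjb2) and 0 were more than 2-fold lower. Fold changes are given on a log2 scale with a pseudocount of 1. The median over the 10 genes was 0.56, beside -0.02 over the 17204 genes compared. Over all compared genes 1.08% were more than 2-fold higher and 1.91% more than 2-fold lower. Low counts vary more, and among the 4513 genes whose mean count lay within the range of the 10 (29.7 to 245.2) these shares were 1.53% and 1.84%. Above zero change lay 9 of the 10, Grhl1 being the exception, against 45.9% of all compared genes.

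The comparison of mutant-normoxia with wild-normoxia asks what 1 altered copy of Nkx2-5 did in normal oxygen. Here 6 of the 10 were more than 2-fold higher (Trp63, Grhl2, Esrp1, Epcam, Cldn6 and Gjb2) and 0 more than 2-fold lower. Over all compared genes 1.59% were more than 2-fold higher and 0.494% lower, and within the same range of mean counts 2.35% and 0.487%. The median of the 10 was 1.38, beside -0.01 over all genes compared. Again 9 of 10 lay above zero, with Grhl1 below, against 47.9% of all genes. Because the list was chosen with these contrasts known, nothing is read from its counts beyond this description, and in bulk hearts more epithelial cells and more RNA per cell cannot be told apart.

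**Figure D3:**
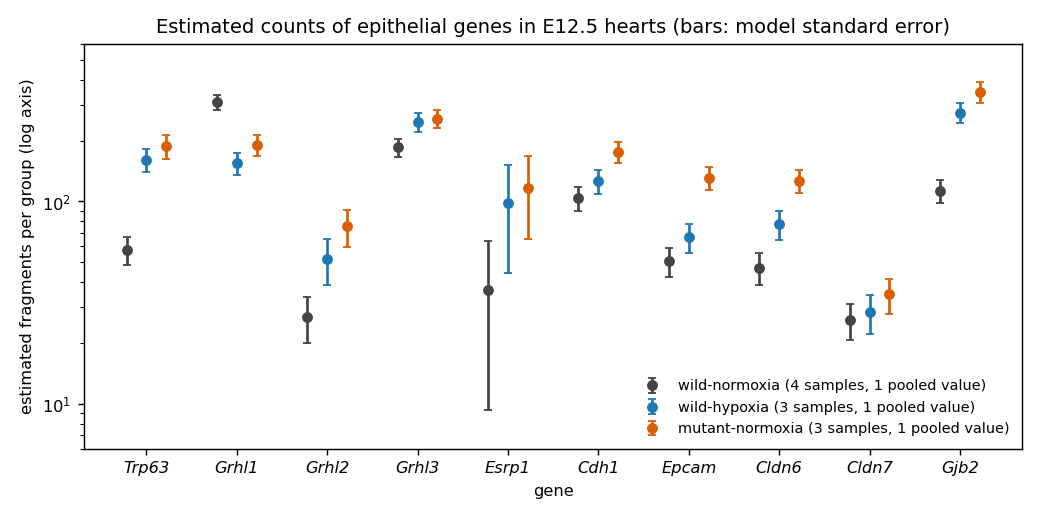
Estimated fragments per group for the 10 genes on a log axis, with bars showing the standard error derived from the variance of the authors' model. Trp63, Esrp1 and Gjb2 stand above their wild-normoxia values in the other groups, whereas Grhl1 is highest in wild-normoxia at 309.4.

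Trp63 (ENSMUSG00000022510; NCBIM37 chr16:25683849-25892188, plus strand, 14 exons in its longest transcript) had 57.5 ± 9.18 fragments in wild-normoxia. It reached 160.6 ± 20.9 in wild-hypoxia and 187.5 ± 24.8 in mutant-normoxia. The log2 fold change was 1.47 (model SE 0.29) in wild-hypoxia and 1.69 (0.30) in mutant-normoxia. Trp63 thus had the highest value among the 10 in each of these comparisons, while mutant-normoxia and wild-hypoxia differed by 0.22 (0.27). Esrp1 (1.40 and 1.65) and Gjb2 (1.28 and 1.62) lay within the model standard error of Trp63, so the order of these genes is not resolved. Its exons carry 8 annotated transcripts from alternative starts and ends, and a count per gene does not separate the isoforms that have the transactivation domain from those that lack it.

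The grainyhead-like genes did not share a direction. Grhl1 (ENSMUSG00000020656; chr12:25257152-25302256, plus) was highest in wild-normoxia, with 309.4 ± 26.9 fragments against 154.4 ± 19.4 in wild-hypoxia and 190.2 ± 22.0 in mutant-normoxia. Its log2 fold change was -0.998 (0.22) in wild-hypoxia, which with the pseudocount was just short of 2-fold (1.997-fold lower), and -0.70 (0.21) in mutant-normoxia. Grhl1 was the single gene of the 10 that was lower in these groups than in wild-normoxia. Grhl2 (ENSMUSG00000022286; chr15:37162791-37293324, plus) had 26.8 ± 6.85, 51.99 ± 13.5 and 75.5 ± 15.8 fragments in wild-normoxia, wild-hypoxia and mutant-normoxia. The differences from wild-normoxia were 0.93 (0.51) and 1.46 (0.46), the wild-hypoxia value lying within 2 model standard errors of zero. An antisense gene, Gm16136, shares 169 exon bases with Grhl2 and had 20.0, 49.5 and 50.3 fragments in the same order. Use of strand in counting is not stated, so reads of Grhl2 and Gm16136 in the shared stretch cannot be told apart.

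Grhl3 (ENSMUSG00000037188; chr4:135097803-135129545, minus), which in mice is needed for closure of the neural tube and for the skin barrier, had 185.1 ± 18.4, 246.8 ± 26.0 and 256.7 ± 26.7 fragments. Its log2 fold changes were 0.41 (0.21) in wild-hypoxia and 0.47 (0.21) in mutant-normoxia. In wild-normoxia the order per kb was Grhl1 (88.4), Grhl3 (66.4), Grhl2 (4.87). In the other groups Grhl3 stood first, at 88.5 per kb in wild-hypoxia and 92.1 in mutant-normoxia, beside 44.1 and 54.3 for Grhl1. The switch in order between Grhl1 and Grhl3 was therefore present in each of the other groups.

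Esrp1 (ENSMUSG00000040728; chr4:11259080-11313930, minus) encodes a splicing regulator that sets epithelial isoforms of many transcripts. It was estimated at 36.5 ± 27.1 fragments in wild-normoxia, with 97.9 ± 53.7 in wild-hypoxia and 116.5 ± 51.1 in mutant-normoxia. The log2 fold changes of 1.40 (1.30) and 1.65 (1.22) are large but lie within 2 model standard errors of zero, and for this gene the model gave a much wider error than for others at a like count. An opposite-strand gene of the annotation used here, Gm16652, shares 127 exon bases with Esrp1 but, unlike Gm16136, has no count among the deposited values. Reads from the stretch shared with Esrp1 cannot be assigned to a strand either. The related gene Esrp2 showed similarly wide errors, at 1.09 (1.21) and 1.09 (1.11).

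Epcam and Cdh1 encode surface adhesion proteins. Epcam (ENSMUSG00000045394; chr17:88035319-88050446, plus) had 50.7 ± 8.28 fragments in wild-normoxia and 66.6 ± 11.2 in wild-hypoxia, and 131.2 ± 17.2 in mutant-normoxia. The fold change was 0.39 (0.33) in wild-hypoxia and 1.35 (0.30) in mutant-normoxia. For Epcam mutant-normoxia was higher than wild-hypoxia by 0.97 (0.30). Cdh1 (ENSMUSG00000000303; chr8:109127251-109194146, plus), which encodes E-cadherin, had 104.1 ± 14.3, 125.7 ± 17.3 and 175.6 ± 21.3 fragments, or 0.27 (0.28) and 0.75 (0.26). The P-cadherin gene Cdh3, 46.4 kb from Cdh1 on the same strand, was nearly flat at 2495, 2486 and 2565 fragments.

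Claudins form the seal of tight junctions. Cldn6 (ENSMUSG00000023906; chr17:23816332-23819413, plus), a claudin of embryonic epithelia, had 47.0 ± 8.41, 77.2 ± 12.4 and 126.5 ± 16.7 fragments. Its log2 fold change was 0.71 (0.34) in wild-hypoxia and 1.41 (0.32) in mutant-normoxia. Between these groups the difference was 0.71 (0.30). Cldn6 was thus highest in mutant-normoxia with wild-hypoxia between, an order shared by all of the 10 genes except Grhl1. Cldn9, on the opposite strand 139 bases away, stayed under the minimum of 10 fragments in each group. Cldn7 (ENSMUSG00000018569, chr11:69778281-69781387, plus) had 26.0 ± 5.24, 28.4 ± 6.25 and 34.7 ± 6.90 fragments. Its fold changes of 0.12 (0.42) and 0.40 (0.40) lie within 2 model standard errors of zero.

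Gjb2 (ENSMUSG00000046352; chr14:57717437-57723539, minus) encodes connexin 26, a gap junction channel of skin, inner ear and other epithelia. It had 112.8 ± 14.5 fragments in wild-normoxia, with 275.1 ± 31.2 in wild-hypoxia and 347.7 ± 41.5 in mutant-normoxia. The fold changes of 1.28 (0.25) and 1.62 (0.25) lay 5.197 and 6.42 model standard errors from zero. Gjb6 (connexin 30), its neighbour 18.6 kb away on the same strand, had fewer fragments (16.0, 38.3 and 50.8) and fold changes of 1.21 (0.47) and 1.61 (0.47). The 2 neighbouring connexin genes were thus higher than wild-normoxia to a like degree in each group, although the count of Gjb6 is small.

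**Figure D4:**
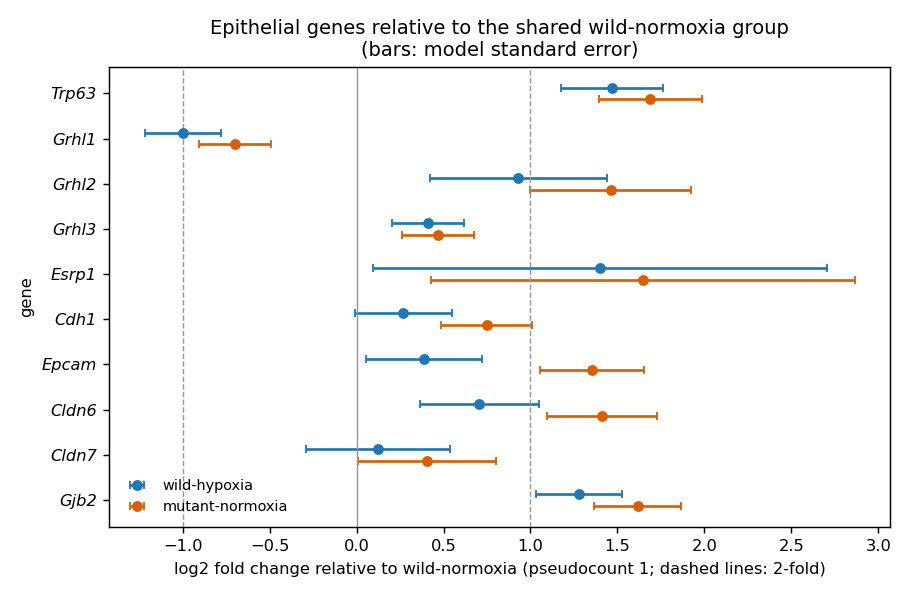
Log2 fold change of the 10 genes for wild-hypoxia and for mutant-normoxia, each relative to the same wild-normoxia group, with bars for the model standard error and dashed lines at 2-fold. Trp63 reaches 1.47 and 1.69, Gjb2 1.28 and 1.62, and Grhl1 lies below zero at -0.998 and -0.70.

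Set directly against each other, mutant-normoxia was higher than wild-hypoxia for 10 of the 10 genes, against 55.7% of all compared genes, with a median of 0.32 beside 0.02 over all genes. No member passed 2-fold (0 higher, 0 lower), where over all compared genes 1.73% were more than 2-fold higher and 0.238% lower. Differences ran from 0.06 (0.21) for Grhl3 to 0.97 (0.30) for Epcam. Among the 10 genes, only Epcam and Cldn6 differed by over 2 model standard errors. With the deposited variance left undivided, their errors were 0.53 and 0.52, and both differences lay within 2 such errors of zero. Summed over the 10 genes the counts came to 955.9 for wild-normoxia, 1284.7 for wild-hypoxia and 1642.1 for mutant-normoxia.

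Other genes of the epithelial programme were taken from lists of regulators, junctions, surface proteases and basement membrane, 104 genes in all with an identifier, of which 80 had enough counts to compare. In wild-hypoxia 11 were more than 2-fold higher and 1 lower, with a median of 0.09. In mutant-normoxia 11 were higher and 0 lower, with a median of 0.16. Beside these stand 1.08% and 1.59% more than 2-fold higher among all genes, and medians over all genes of -0.02 and -0.01. Genes needed at least 10 fragments in some group, so a gene could enter only through the group where it was high. Cldn18, Cldn23, Elf3 and Rab25, counted as higher in each comparison, lay under 10 in wild-normoxia, at 0.66, 4.52, 7.58 and 5.22. Gjb1, counted as lower in wild-hypoxia, reached 10 in wild-normoxia alone, at 12.8. The shares over all genes rest on the same minimum. Among the 80, the 27 with a mean of at least 1000 fragments, a split chosen after the values were seen, lay between -0.31 and 0.22 on the log2 scale in wild-hypoxia and between -0.39 and 0.32 in mutant-normoxia. The genes past 2-fold were all among the other 53, whose medians were 0.26 in wild-hypoxia and 0.52 in mutant-normoxia.

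The regulators on those lists included AP-2 factors, which act with p63 in skin. Tfap2c had 16.5, 27.2 and 47.2 fragments, with 0.69 (0.49) in wild-hypoxia and 1.46 (0.47) in mutant-normoxia. Tfap2a stood at 0.63 (0.31) and 0.92 (0.30). Both AP-2 genes lay further from wild-normoxia in mutant-normoxia. Mutant-normoxia differed from wild-hypoxia by 0.77 (0.44) for Tfap2c and 0.29 (0.30) for Tfap2a, each within 2 model standard errors of zero. Sox2, a factor of foregut and neural progenitors, differed in direction between the groups, with 76.0, 41.6 and 157.9 fragments, or -0.85 (0.39) and 1.04 (0.31). Of the 8 genes for mesenchymal repressors, N-cadherin and vimentin, 0 passed 2-fold in either comparison and the median was 0.06 in each. Zeb1, whose protein represses epithelial genes, had 2725, 2562 and 2566 fragments, and Cdh2 had 9419, 8440 and 8268. Twist2, a mesenchymal factor of dermis, was the farthest of the 8 at 0.55 (0.26) and 0.92 (0.25).

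Desmosomes join both epidermal cells and heart muscle cells, with different plakophilins in each. Pkp3, a plakophilin of epithelial desmosomes, had 19.6, 81.0 and 71.6 fragments, or 1.99 (0.41) and 1.82 (0.42). Pkp1, a plakophilin of epidermis, stood at 1.505 (0.43) and 1.26 (0.44). The cardiac plakophilin Pkp2 was nearly flat at -0.07 (0.14) and -0.12 (0.14), as was desmoplakin (Dsp) at 0.03 (0.17) and 0.13 (0.17). Of the 10 desmosome genes compared, 2 passed 2-fold in each comparison, Pkp1 and Pkp3, and the list medians were -0.04 and 0.03. Of the 10 other tight junction genes none passed 2-fold in either comparison, with medians of 0.08 and 0.07. Of the 9 hemidesmosome and basement membrane genes 0 passed 2-fold in either comparison, with medians of -0.11 and 0.29.

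Claudins and connexins beyond the 10 were mixed. Of the 10 other claudins compared, 3 in wild-hypoxia and 2 in mutant-normoxia were more than 2-fold higher. Cldn13, an erythroid claudin in mice, had 73.7, 200.2 and 143.0 fragments, or 1.43 (0.26) and 0.95 (0.27), and red cell markers summed to 9999, 28294 and 24010 fragments in the same order. Cldn18, a claudin of lung and stomach, rested on few fragments (0.66, 3.52 and 20.1) with 1.45 (1.05) and 3.67 (1.01). Of the 10 other connexins, Gjb6 was more than 2-fold higher in each comparison. Gjb1, a connexin of liver, was lower at -1.43 (0.68) and -0.97 (0.60). Surface trafficking and protease genes included Ap1m2 at 1.603 (0.53) and 1.57 (0.45), and Rab25 at 1.93 (0.58) and 1.53 (0.58), both known from epithelial sorting and both at counts below 40.

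The tissue label was checked against markers. Cardiomyocyte markers summed to 412121, 424804 and 448127 fragments and endocardial markers to 19555, 20987 and 18924, so the samples carried the genes of heart in each group. Keratins of basal epidermis (Krt5, Krt14, Krt15 and Krt17) summed to 208.2, 1527.6 and 1133.9 fragments and 4 of 4 were more than 2-fold above wild-normoxia in each comparison. Unlike the 10 genes, these keratins were lower in mutant-normoxia than in wild-hypoxia, with 0 of 4 above zero and a median of -0.40. Between those groups, however, 3 of the 4 keratins and 8 of the 10 genes lay within 2 model standard errors of zero. Foregut and lung bud markers summed to 56.9, 104.6 and 374.9. In the mutant-normoxia group 5 of the 5 compared lay more than 2-fold above wild-hypoxia, beside 1.73% of all compared genes. Sftpc, also listed, stayed under the minimum of 10 fragments in each group. Nkx2-1 had 0.77, 9.32 and 81.6 fragments, so it entered through mutant-normoxia alone. Foxa1, Foxa2, Shh and Barx1 each reached 10 in another group too. Relative to wild-normoxia, the 5 compared markers were mixed in wild-hypoxia. Of them 2 were more than 2-fold higher, 1 was more than 2-fold lower and 3 lay within 2 model standard errors of zero. Pharyngeal pouch markers summed to 48.99, 102.0 and 181.9. Simple keratins (Krt7, Krt8, Krt18 and Krt19), which the epicardium also expresses, summed to 1945, 2413 and 2684, and none of the markers named was listed at 0. Skeletal muscle markers summed to 279, 792 and 1543, and liver markers were highest in wild-normoxia at 3942, 1296 and 1453. Epicardial markers summed to 4957, 5618 and 6076, with 0 of 5 past 2-fold in either comparison and medians of 0.23 and 0.26. Neuron markers summed to 706, 495 and 861, with 3 of 4 more than 2-fold lower in wild-hypoxia. Neural crest and glia markers summed to 268, 254 and 318, and macrophage markers to 952, 842 and 630. The part of epithelial cells, of the epicardium or from outside the heart wall, in the values of the 10 genes was not tested.

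**Figure D5:**
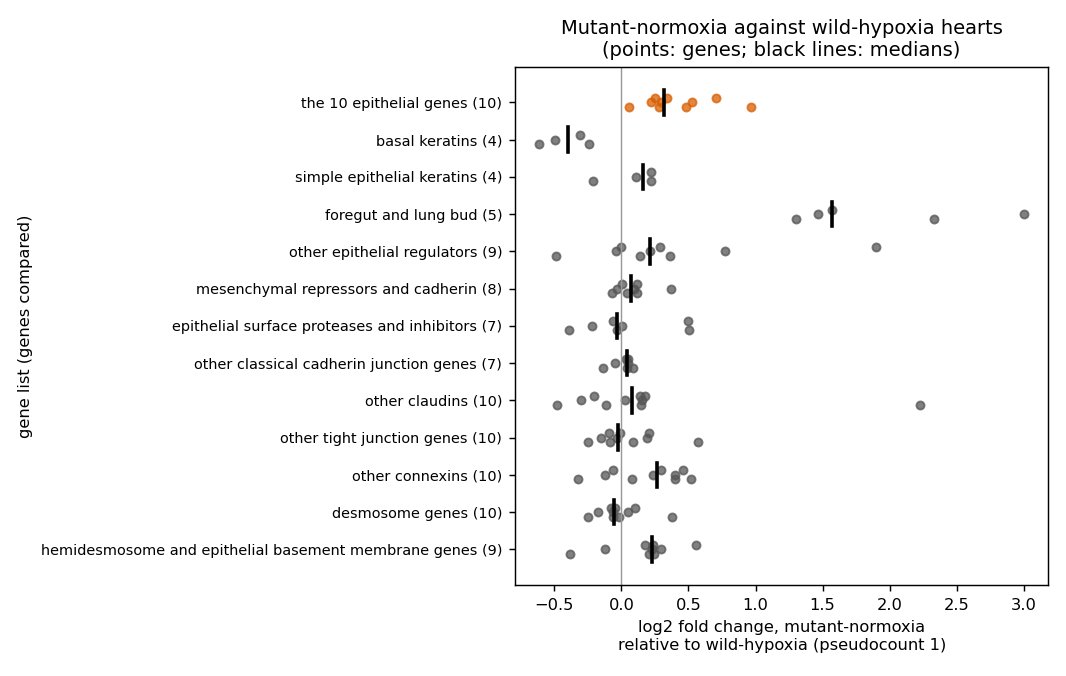
Log2 fold change of mutant-normoxia relative to wild-hypoxia for the 10 genes, for keratins, foregut markers and each list of other epithelial genes, with 1 point per gene and black lines for medians. The 10 genes lie above zero with a median of 0.32, the basal keratins below zero with a median of -0.40 and the foregut markers above with a median of 1.57.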

How the data were processed

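Poly-adenylated RNA of 10 heart samples was read as single-end reads of 40 bases. Per the labels, the authors aligned reads with Bowtie2 and TopHat to mm9 and estimated expression with Cufflinks (for versions and annotation release: not given in the sources used here). Deposited values are estimated counts of fragments, 1 per gene and group, put on 1 scale across groups and pooled over replicates by the authors, with a variance and a status. Individual samples were not analysed here, so no edgeR or other count test could be run.

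Fold changes used log2(count + 1) for 17204 genes with an estimate in each group (34 of 49662 lacked one) and at least 10 fragments in some group. The model standard error divided the deposited variance by 4, 3 and 3 samples, a choice made here and not by the authors. Symbols matched 173 of 176 list genes. Levels per kb used exon unions of an NCBIM37 annotation that may differ from that of the authors. Promoters are RefSeq windows on GRCm38.p6, and no coordinate was converted between builds. The genes and lists were chosen with earlier results of these data known. Named genes were the 10 genes, up to 3 per list with the largest distance from wild-normoxia in model errors, and family members. Some genes named beside them (Zeb1, Pkp2, Dsp and Esrp2) were chosen after their values were seen. Python 3.11.15, pandas 2.3.3 and NumPy 2.4.6 were used, and the calculation was tested on simulated data. That simulation assumed a variance per sample, so it could not check whether the deposited variance may be divided by the number of samples. Unmapped columns numbered 0.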

Additional observations from a re-analysis of the deposited data

How the results depend on the processing

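Alternatives were a pseudocount of 0.5 or 10, counts divided by group totals, median-of-ratios scaling, another minimum count and a fold of 1.5. The log2 fold changes of the 10 genes moved by less than 1 model standard error in 120 of 120 recalculations, and none changed sign. Scaling moved the median of all genes by at most -0.08. Over 1.5-fold in place of 2-fold, 6 of the 10 genes passed in wild-hypoxia (5 higher, 1 lower) and 2 between mutant-normoxia and wild-hypoxia. With counts divided by group totals, 1 gene passed 2-fold between mutant-normoxia and wild-hypoxia. Grhl1 passed 2-fold lower in wild-hypoxia with a pseudocount of 0.5 or with group totals.

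Over all genes, 515 passed 2-fold in wild-hypoxia and 358 in mutant-normoxia. These became 222 and 179 with a pseudocount of 10, 1352 and 979 over 1.5-fold, 1505 and 1071 with no minimum count, and 187 and 159 with at least 50 fragments. The wild-hypoxia split of 186 higher and 329 lower became 110 and 112 with a pseudocount of 10, and 103 and 84 with at least 50 fragments. With the deposited variance left undivided, genes of the 10 over 2 model standard errors went from 4 to 3 in wild-hypoxia and from 8 to 4 in mutant-normoxia. Between mutant-normoxia and wild-hypoxia, Epcam and Cldn6 then also lay within 2 model standard errors of zero.

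No paired analysis was possible because the table holds 1 pooled value per group and no sample columns. For the same reason leaving out replicates was not run. Of the 10 genes, Esrp1 was the least precise in each group, with a model SD of 149% of its count in wild-normoxia and 76.0% in mutant-normoxia.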
